A study of Mus musculus with 12 samples.

Results

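The integrated stress response was followed in mouse liver through the transcripts of 10 genes, Atf4, Atf5, Ddit3, Trib3, Chac1, Asns, Psat1, Phgdh, Sesn2 and Ppp1r15a, taken by symbol from a table of 22456 genes. All 10 were found. The livers came from male BALB/cByJ mice of 2 to 8 months that were either Lpin1+/+ (labelled WT) or Lpin1-/- (labelled FLD, for fatty liver dystrophy), each either fasted for 16 hours or refed chow for 5 hours after such a fast, with 3 mice in each of the 4 groups. Lipin 1, the product of Lpin1, is a phosphatidic acid phosphatase and a transcriptional coregulator, and the mutation is carried in the germline, so every cell of the body lacked it. Mice of both genotypes were caged singly for the fast in a room cooler than the one they were reared in, and refed livers were taken later in the day than fasted livers, so feeding and time of day changed together. RNA came from whole liver, where fewer cells of a type and less RNA per cell cannot be told apart.

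In the integrated stress response, kinases that sense endoplasmic reticulum (ER) stress, amino acid shortage, heme shortage or double-stranded RNA phosphorylate the translation factor eIF2. General translation then falls, while the mRNAs of Atf4, Atf5 and a few others, which carry upstream open reading frames, are translated more, so the transcript level of these factors is only part of their control. ATF4 and CHOP, the product of Ddit3, bind C/EBP-ATF response elements and drive genes of amino acid synthesis and import, tRNA charging and redox balance, as well as genes that close the pathway down. In liver the response is known from amino acid restriction, ER stress and lipid overload.

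The C/EBP-ATF response element was searched as TGATGNAA on both strands of the RefSeq promoters, which run from 250 bases before to 50 bases after each annotated start (build GRCm38.p6). The 10 genes have 12 such promoters, and the letters were found in 3 of the 10 genes, Chac1, Trib3 and Asns. Of all 27025 genes with such promoters, 4.51% hold them, and of all 32851 promoters of this length, 3.97%. The 3 matches are shown because they are the only ones among these genes within this window. Each is written on the strand of its gene with the match in capitals, and in Chac1 and Trib3 the element itself reads on the opposite strand.
Chac1, chr2:119351039-119351066, plus strand: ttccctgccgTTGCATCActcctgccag
Trib3, chr2:152344029-152344056, minus strand: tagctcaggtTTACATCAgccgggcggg
Asns, chr6:7693215-7693242, minus strand: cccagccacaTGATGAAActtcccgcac
The first base of the match lay at position -193 from the RefSeq start in Chac1, at -23 in Asns and at 15 in Trib3. The GENCODE gene bounds given below put the Asns match inside the gene and the Trib3 match upstream of it. The side of the start thus depends on the annotation for these genes. The ER stress element, searched in the same way as a CCAAT box set apart from CCACG by 9 bases, was found in 0 of the 10 genes and in 0.137% of all genes. These matches say only that the letters are present and carry no measure of binding.

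Expression was deposited as RPKM, which corrects the reads of a gene for its length and for the size of the library, so levels may be compared between genes. The libraries differed in relative depth by at most 1.34 times, while the absolute depth was not set from the table. Lpin1 was at 0.00573 to 0.0597 RPKM in the 6 Lpin1-/- libraries and at 0.726 to 21.96 RPKM in the 6 Lpin1+/+ libraries, and replicate 1 of fasted Lpin1+/+ liver, at 21.96, stood apart from the other libraries of its group, at 0.726 and 1.76. Hepatocyte markers summed to 32016 to 74387 RPKM per library, against at most 576 for Kupffer cell, 173 for lymphocyte and neutrophil and 21.1 for cholangiocyte markers. Replicate 2 of refed Lpin1+/+ liver stood apart in acute phase transcripts, which summed to 57479 RPKM there and to 3737 to 16903 RPKM in the other 11 libraries. Replicate 1 of fasted Lpin1-/- liver stood apart in cholangiocyte markers (21.1 against at most 6.94 RPKM elsewhere) and red cell markers (1783 against at most 839 RPKM), and its Kupffer cell sum was the highest. Differences were tested as log2(RPKM + 1) with limma over the 11507 genes whose mean in all 12 libraries reached 0.5 RPKM, with Benjamini-Hochberg adjustment over all of them, and "altered" means an adjusted p under 0.05. Of the 10 genes, 8 passed this minimum. Psat1, at a mean of 0.484 RPKM, and Phgdh, at 0.138 RPKM, did not. Each fold change is on the log2(RPKM + 1) scale, which understates the change of genes near 1 RPKM. Lpin1 itself had a mean 160 times lower in fasted and 165 times lower in refed Lpin1-/- liver. It was altered in neither (log2 fold change -2.19 and -1.55, limma adjusted p = 0.0562 and 0.231). A gene that was not called may thus still differ, above all at low levels.

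The levels of the 10 genes covered a wide range. Over the 12 libraries the mean was 316 RPKM for Atf5, 122 for Atf4, 16.4 for Ddit3, 7.96 for Ppp1r15a, 6.89 for Chac1, 5.17 for Trib3, 3.86 for Sesn2 and 1.25 for Asns. Neighbours in this order overlapped in their ranges over the 12 libraries, apart from Atf4 and Ddit3. The order of the leading pair depended on the group. Atf5 was 2.25 to 7.16 times the level of Atf4 in the 9 libraries of the other groups and 0.269, 0.608 and 0.449 times its level in the 3 fasted Lpin1-/- libraries. This ratio was chosen after the values were seen and is given without a test.

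**Figure D1:**
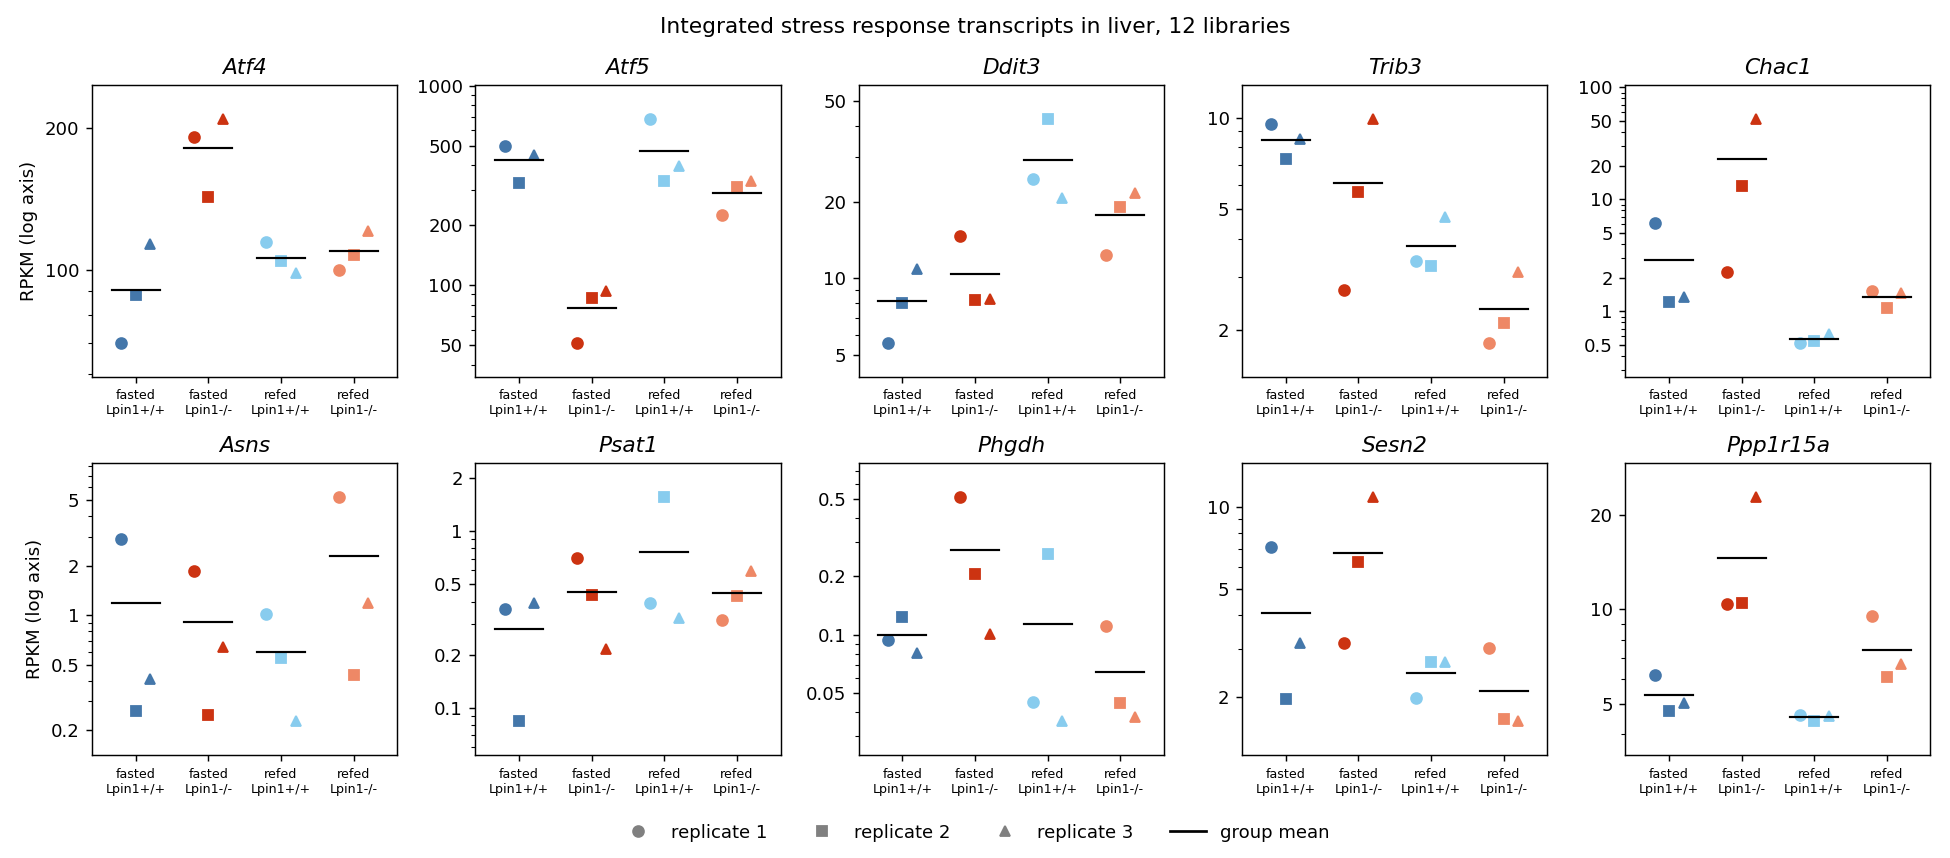
RPKM (log axis) of the 10 genes in each of the 12 liver libraries, with the 3 libraries of each group as points of a different shape and the group mean as a line. In fasted Lpin1-/- liver Atf4 and Ppp1r15a lie above, and Atf5 below, every library of fasted Lpin1+/+ liver, while the 3 libraries of Chac1 spread from 2.27 to 52.7 RPKM.

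The genotypes were first compared in fasted liver. Atf4 and Ppp1r15a were higher in fasted Lpin1-/- than in fasted Lpin1+/+ liver and Atf5 was lower, so 3 of the 8 tested genes were altered (37.5%). Of all tested genes, 18.8% were altered in this comparison. An unadjusted p under 0.05 was reached by 4 of the 8 and by 3802 of all 11507 genes. Refeeding of Lpin1-/- mice also altered 3 of the 8, with Atf4 and Chac1 lower and Atf5 higher after refeeding, against 20.7% of all genes. Refeeding of Lpin1+/+ mice altered 1 of the 8, Ddit3, which was higher, against 1.72% of all genes. Between the genotypes in refed liver, limma called 0 of the 8, against 6.67% of all genes. An unadjusted p under 0.05 was reached by 0 of the 8 and by 2585 of all 11507 genes. The test of whether refeeding acted differently in the genotypes also called 0 of the 8, against 1.28% of all genes. In this test 2 of the 8 and 2082 of all 11507 genes had an unadjusted p under 0.05. With 8 genes, both counts of 0 altered are too near the shares to be read as results. The libraries of the groups compared did not overlap for 3 of the 8 between genotypes in fasted liver (32.9% of all genes), for 4 between genotypes in refed liver (33.9%), for 5 on refeeding of Lpin1-/- mice (46.8%) and for 4 on refeeding of Lpin1+/+ mice (18.1%). The comparisons share libraries, so they are not independent of each other.

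**Figure D2:**
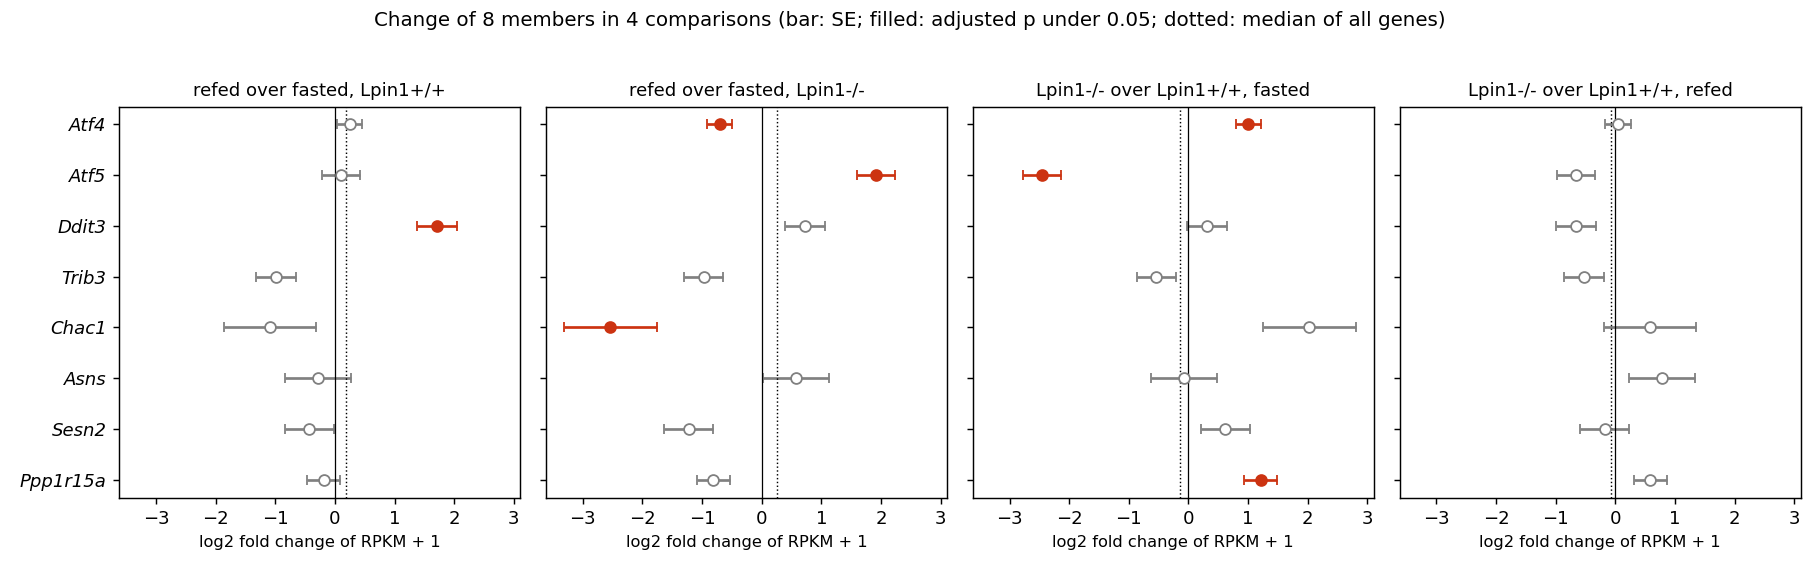
Log2 fold change of RPKM + 1 with its SE for the 8 tested genes in 4 comparisons of 3 libraries against 3, filled red where the adjusted p is under 0.05. In fasted liver Atf4 (1.00) and Atf5 (-2.46) lie on opposite sides of 0, and in refed liver none of the 8 points is filled.

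Atf4 encodes the central transcription factor of the response (ENSMUSG00000042406.8, chr15:80255184-80257541). In fasted Lpin1+/+ liver it was at 69.9, 88.3 and 113.6 RPKM in replicates 1 to 3, and in fasted Lpin1-/- liver at 191.4, 142.4 and 209.5 RPKM. In refed liver it was at 114.5, 104.5 and 98.6 RPKM in Lpin1+/+ and at 99.8, 107.4 and 121.1 RPKM in Lpin1-/-. Every fasted Lpin1-/- library thus lay above all 9 others, which overlapped each other. The mean was 2.0 times that of fasted Lpin1+/+ liver (181.1 ± 34.7 against 90.6 ± 21.98 RPKM, SD, n = 3), with a log2 fold change of 1.00 (SE 0.21, limma adjusted p = 0.00832, range over 18 alternatives 0.00738 to 0.0564). Without replicate 1 of fasted Lpin1+/+ liver the log2 fold change was 0.83 (adjusted p = 0.0222). Refeeding lowered it in Lpin1-/- liver, with a log2 fold change of -0.71 (SE 0.21, limma adjusted p = 0.0356, range over 18 alternatives 0.0192 to 0.103), a call lost when replicate 1 or 3 of fasted or any library of refed Lpin1-/- liver was left out. In Lpin1+/+ liver the refeeding value was 0.25 (SE 0.21, limma adjusted p = 0.636).

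Atf5 encodes a related bZIP factor with roles in the mitochondrial stress response and in hepatocyte gene expression (ENSMUSG00000038539.15, chr7:44812256-44816658). It was the most abundant of the 10 transcripts in 9 libraries, at 500.1, 324.3 and 449.1 RPKM in fasted and 685.0, 334.5 and 397.2 RPKM in refed Lpin1+/+ liver. In fasted Lpin1-/- liver it was at 51.5, 86.6 and 94.1 RPKM, and in refed Lpin1-/- liver at 224.5, 312.1 and 334.5 RPKM. The fasted Lpin1-/- libraries overlapped no other group, and the refed genotypes met at 334.5 RPKM. The mean of fasted Lpin1-/- liver was 5.49 times lower than that of fasted Lpin1+/+ liver (77.4 ± 22.8 against 424.5 ± 90.5 RPKM, SD, n = 3), with a log2 fold change of -2.46 (SE 0.32, limma adjusted p = 0.000765). Refeeding raised it in Lpin1-/- liver, with a log2 fold change of 1.92 (SE 0.32, limma adjusted p = 0.00276), and both values passed the threshold under each of 18 alternatives. In refed liver it was not altered between genotypes (log2 fold change -0.65, SE 0.32, limma adjusted p = 0.255). The refeeding effect was higher in Lpin1-/- than in Lpin1+/+ liver by 1.81, which missed the threshold (SE 0.45, limma adjusted p = 0.0730). Atf5 overlaps Nup62 and Il4i1 on the other strand, and whether reads were counted by strand is not given in the sources used here. Those genes were at 3.37 to 8.94 and 0.125 to 1.87 RPKM, far below Atf5 in each library.

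Ddit3 encodes CHOP, a C/EBP family factor linked to sustained ER stress and cell death (ENSMUSG00000025408.15, chr10:127290774-127296288). It was at 5.57, 7.97 and 10.9 RPKM in fasted and at 24.5, 42.7 and 20.7 RPKM in refed Lpin1+/+ liver, so these groups did not overlap. In Lpin1-/- liver it was at 14.7, 8.20 and 8.26 RPKM fasted and at 12.4, 19.2 and 21.7 RPKM refed, and these did overlap. The log2 fold change on refeeding was 1.70 in Lpin1+/+ liver (SE 0.33, limma adjusted p = 0.0299) and 0.73 in Lpin1-/- liver (SE 0.33, limma adjusted p = 0.139). The difference of the refeeding effects, -0.97, did not pass the test (SE 0.47, limma adjusted p = 0.307). The call in Lpin1+/+ liver was lost in 12 of 18 alternatives, with an adjusted p of 0.0221 to 0.135 and a log2 fold change of 1.41 to 1.91 over all 18. Its highest library was replicate 2 of refed Lpin1+/+ liver, the library of high acute phase transcripts, and without it the log2 fold change was 1.41 (adjusted p = 0.0784). Ddit3 overlaps Mars, which lies on the other strand and was at 12.4 to 27.3 RPKM, so its level is less certain than that of Atf4.

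Of the genes that feed back on the response, Ppp1r15a was altered by genotype. It encodes GADD34, which brings protein phosphatase 1 to eIF2 and so restores translation (ENSMUSG00000040435.12, chr7:45522916-45526268). It was at 6.17, 4.76 and 5.04 RPKM in fasted Lpin1+/+ liver and at 10.4, 10.5 and 22.8 RPKM in fasted Lpin1-/- liver. In refed liver it was at 4.60, 4.403 and 4.58 RPKM in Lpin1+/+ and at 9.55, 6.09 and 6.70 RPKM in Lpin1-/-. The Lpin1-/- libraries lay above the Lpin1+/+ libraries in both feeding states, and the refed Lpin1+/+ libraries differed by only 1.05 times from lowest to highest. The log2 fold change between genotypes was 1.21 in fasted liver (SE 0.28, limma adjusted p = 0.0121, below the threshold in 17 of 18 alternatives) and 0.59 in refed liver (SE 0.28, limma adjusted p = 0.235). On refeeding of Lpin1-/- mice it was -0.81, just short of the threshold (SE 0.28, limma adjusted p = 0.0584). Ppp1r15a overlaps Tulp2, which was at no more than 0.0920 RPKM.

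Trib3 encodes a pseudokinase that binds and restrains ATF4 and CHOP (ENSMUSG00000032715.9, chr2:152337422-152344032). It was at 9.55, 7.31 and 8.51 RPKM in fasted and 3.38, 3.24 and 4.72 RPKM in refed Lpin1+/+ liver, with no overlap. In Lpin1-/- liver it was at 2.71, 5.70 and 9.92 RPKM fasted and at 1.81, 2.11 and 3.10 RPKM refed. The log2 fold change on refeeding was -0.99 in Lpin1+/+ (SE 0.33, limma adjusted p = 0.196) and -0.98 in Lpin1-/- (SE 0.33, limma adjusted p = 0.0571), and neither passed the threshold. The difference between these effects was 0.02 (SE 0.47). These values had the opposite sign to those of Ddit3 in both genotypes, and its genotype difference in fasted liver was -0.54 (limma adjusted p = 0.286), against 1.00 for Atf4.

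Sesn2 encodes a leucine-binding inhibitor of mTORC1 signalling (ENSMUSG00000028893.8, chr4:132492032-132510501). It was at 7.11, 1.98 and 3.16 RPKM in fasted and 1.995, 2.70 and 2.70 RPKM in refed Lpin1+/+ liver. In Lpin1-/- liver it was at 3.18, 6.30 and 10.9 RPKM fasted and 3.03, 1.66 and 1.63 RPKM refed, which did not overlap. Refeeding of Lpin1-/- mice gave a log2 fold change of -1.23 that missed the threshold (SE 0.41, limma adjusted p = 0.0535). The genotype difference in fasted liver was 0.62 (SE 0.41, limma adjusted p = 0.322). Sesn2 overlaps Gm12981, annotated as an antisense transcript.

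Chac1 encodes an enzyme that degrades glutathione and is among the most inducible ATF4 targets (ENSMUSG00000027313.3, chr2:119351229-119354381). It was at 6.13, 1.23 and 1.34 RPKM in fasted Lpin1+/+ liver and at 2.27, 13.3 and 52.7 RPKM in fasted Lpin1-/- liver. In refed liver it was at 0.523, 0.545 and 0.634 RPKM in Lpin1+/+ and at 1.51, 1.08 and 1.46 RPKM in Lpin1-/-. The fasted Lpin1-/- libraries thus differed 23.2 times among themselves, more than those of any other of the 8 genes in any group, and the refed groups were narrow and did not overlap. Refeeding of Lpin1-/- mice lowered it, with a log2 fold change of -2.54 (SE 0.78, limma adjusted p = 0.0390), which held in 7 of 18 alternatives (0.00496 to 0.109) and was -1.55 (adjusted p = 0.0921) without replicate 3 of fasted Lpin1-/- liver. The genotype difference in fasted liver, 2.03, was not called (SE 0.78, limma adjusted p = 0.0913, range over 18 alternatives 0.00745 to 0.261), and it was 3.05 (adjusted p = 0.00745) without replicate 1 of fasted Lpin1-/- liver, the library of high cholangiocyte and red cell markers. Their part in this value was not tested.

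The amino acid enzymes of the response were low in all groups. Asns, asparagine synthetase (ENSMUSG00000029752.12, chr6:7675169-7693254), was at 2.90, 0.261 and 0.408 RPKM in fasted and 1.02, 0.549 and 0.227 RPKM in refed Lpin1+/+ liver. In Lpin1-/- liver it was at 1.86, 0.247 and 0.639 RPKM fasted and at 5.23, 0.430 and 1.19 RPKM refed. Replicate 1 was the highest library in each group, up to 12.1 times the lowest, and none of the 5 contrasts passed the test (lowest limma adjusted p = 0.438). Psat1 and Phgdh, enzymes of serine synthesis, were at 0.0839 to 1.57 and at 0.0359 to 0.512 RPKM, and the groups of each overlapped in all 4 comparisons. Without a minimum on the mean, no contrast of either passed the threshold (lowest adjusted p = 0.178, Phgdh on refeeding in Lpin1-/-). At these levels a change in either would be hard to detect.

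The spread between livers of a group was itself uneven. In fasted Lpin1-/- liver the median SD of the 8 tested genes on the log2 scale was 0.61, against 0.28 for all tested genes. In fasted Lpin1+/+ liver it was 0.39 against 0.34, in refed Lpin1+/+ liver 0.21 against 0.23, and in refed Lpin1-/- liver 0.30 against 0.22. The same libraries set the extremes of several genes. Replicate 3 of fasted Lpin1-/- liver was the highest of its group for 6 of the 10 genes (Atf4, Atf5, Trib3, Chac1, Sesn2 and Ppp1r15a), and replicate 1 of fasted Lpin1+/+ liver for 6 (Atf5, Trib3, Chac1, Asns, Sesn2 and Ppp1r15a). Over the 12 libraries, after each gene was set to mean 0 and SD 1, the closest pairs among the 8 were Chac1 with Sesn2 (root mean square difference 0.409) and Chac1 with Ppp1r15a (0.4997). Atf4 was closest to Ppp1r15a (0.681).

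Other measures were also higher in some or all of the fasted Lpin1-/- libraries. Immediate early transcripts, which rise with handling and acute stimuli, summed to 68.8, 88.6 and 143.4 RPKM in fasted Lpin1-/- and to 46.8, 26.2 and 25.4 RPKM in fasted Lpin1+/+ liver. The sum was highest in replicate 3 of fasted Lpin1-/- liver, as were Atf4, Chac1 and Ppp1r15a. Of the genes summed, Fos, Jun and Ier2 did not overlap between these groups. Egr1 did, at 12.7, 1.30 and 3.09 RPKM in fasted Lpin1+/+ and 1.66, 2.13 and 9.04 RPKM in fasted Lpin1-/- liver. All 6 Kupffer cell markers were detected, with a summed level of 222 to 576 RPKM in fasted Lpin1-/- and 119 to 247 RPKM in fasted Lpin1+/+ liver. These sums overlapped. C1qa, at 110.9 to 340.5 against 53.1 to 93.6 RPKM, was the only marker of the 6 that did not overlap. In replicate 3 of fasted Lpin1-/- liver Cd5l (12.9 RPKM) and Adgre1 (1.005 RPKM) lay below every fasted Lpin1+/+ library. The 4 lymphocyte and neutrophil markers summed to 50.4 to 173 and 10.4 to 120 RPKM, which overlapped as well. The part of these in the results was not tested. The median of all genes also moved, by -0.14 in this comparison, by 0.25 on refeeding in Lpin1-/- and by 0.19 on refeeding in Lpin1+/+ liver. Relative to it the fasted genotype differences were 1.14 for Atf4, -2.32 for Atf5 and 1.36 for Ppp1r15a, and the refeeding changes in Lpin1-/- liver were -0.96 for Atf4 and 1.67 for Atf5. When each library was rescaled by its median ratio, the same 3 genes were altered between genotypes in fasted liver, while refeeding of Lpin1-/- mice altered 6 genes, with Trib3, Sesn2 and Ppp1r15a lower as well. Ddit3 was then no longer altered on refeeding of Lpin1+/+ mice (adjusted p = 0.110).

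Related genes were read from 7 lists. Of all genes tested, 5.63% were higher and 13.2% lower in fasted Lpin1-/- than in fasted Lpin1+/+ liver, 2.6% higher and 4.07% lower in refed liver, 17.8% higher and 2.92% lower on refeeding of Lpin1-/- mice, and 1.52% higher and 0.2% lower on refeeding of Lpin1+/+ mice. These directions depend on scaling. Higher genes made up 29.9%, 39.0%, 85.9% and 88.4% of the calls in that order, and 46.9%, 50%, 59.2% and 63.2% after rescaling. The other known targets of ATF4 or CHOP held both genes that were higher and genes that were lower in fasted Lpin1-/- liver. Of 27 listed, 22 were tested, and in fasted Lpin1-/- against Lpin1+/+ liver 9 were higher and 3 lower, with a median log2 fold change of 0.44 against -0.14 for all genes. Ddit4, an inhibitor of mTORC1, had the largest rise, from 34.1, 2.95 and 3.40 RPKM to 247, 386 and 644 RPKM (log2 fold change 5.54, SE 0.86, limma adjusted p = 0.00178). Sesn1, a paralog of Sesn2, went from 4.46, 1.81 and 3.20 RPKM to 23.6, 24.5 and 48.3 RPKM. Inhbe, the activin E subunit made in liver, had the largest fall, from 17.9, 51.3 and 84.03 RPKM to 1.05, 0.80 and 0.36 RPKM (log2 fold change -4.67, SE 0.62, limma adjusted p = 0.000836). Chac2, the paralog of Chac1, fell from 29.5, 49.97 and 41.5 RPKM to 7.62, 5.37 and 6.06 RPKM. The third that fell was Fgf21, a fasting hormone, named after its values were seen, which went from 10.8, 31.0 and 43.6 RPKM to 1.24, 0.69 and 0.32 RPKM (log2 fold change -3.90, SE 0.59, limma adjusted p = 0.00155). None of these ranges overlapped, as was so for 32.9% of all genes. The genes were named for their change in these libraries, so this adds no support.

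On refeeding of Lpin1-/- mice, 2 of the 22 tested genes in the list of other targets rose (Inhbe by 2.78 and Chac2 by 2.12 on the log2 scale). In the same comparison 8 fell, with Ddit4 at -3.80 and Sesn1 at -3.31. On refeeding of Lpin1+/+ mice limma called 0 of the 22, against 1.72% of all genes. An unadjusted p under 0.05 was reached by 6 of the 22 and by 1594 of all 11507 genes. In refed liver Map1lc3b, an autophagosome protein, was higher in Lpin1-/- by 1.12, and Inhbe was lower by a log2 fold change of -2.91, a call that held in 14 of 18 alternatives.

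**Figure D3:**
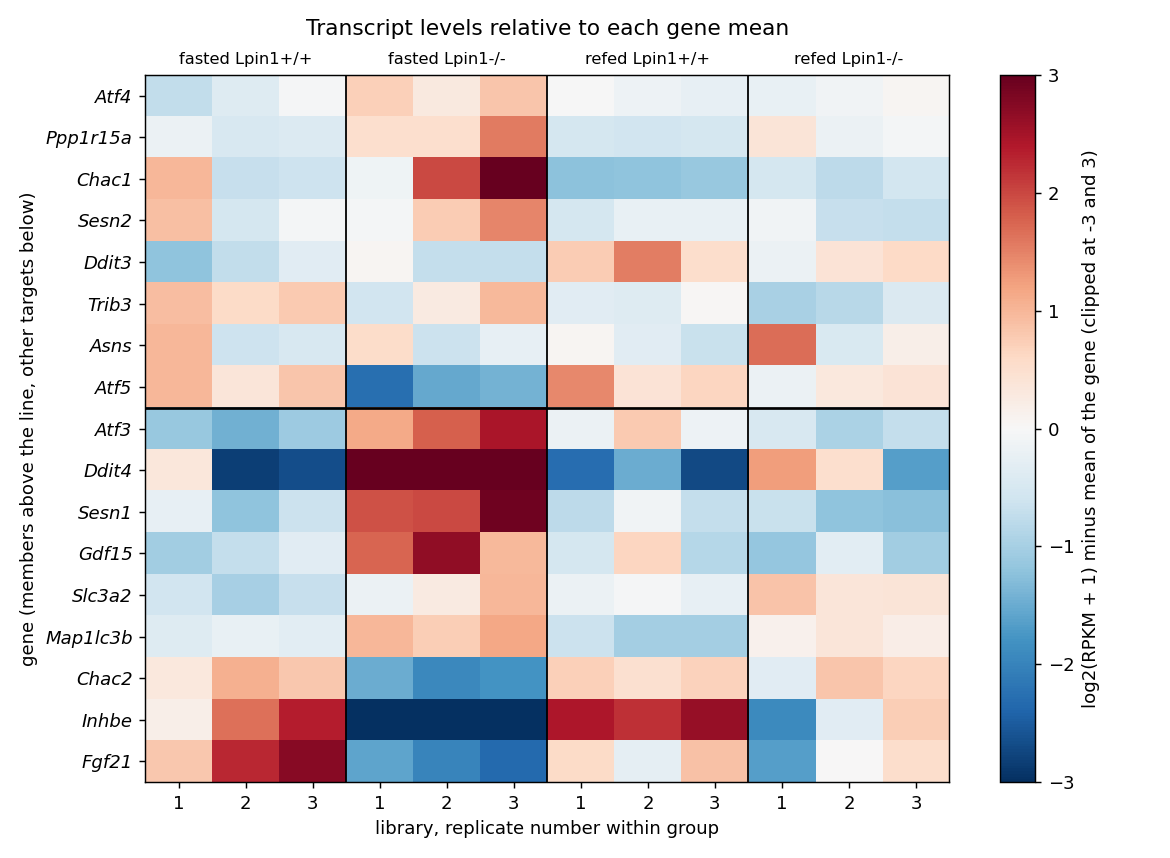
log2(RPKM + 1) minus the mean of each gene over the 12 libraries (colour, clipped at -3 and 3), by group and replicate. The 8 tested genes are above the line and 9 genes of the related lists below it. The fasted Lpin1-/- columns are red for Atf4, Ppp1r15a, Atf3, Ddit4 and Sesn1 and blue for Atf5, Chac2, Inhbe and Fgf21.

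Partner factors of the bZIP class also changed in both directions. Of 11 tested, 3 were higher and 3 lower in fasted Lpin1-/- liver. Atf3, a stress factor induced by ATF4, went from 0.81, 0.47 and 0.86 RPKM to 7.69, 12.7 and 20.9 RPKM (log2 fold change 3.01, SE 0.34, limma adjusted p = 0.000399), and it fell on refeeding of these mice (log2 fold change -2.503). Nfe2l2, which encodes the antioxidant factor NRF2, was lower by a log2 fold change of -1.87 (SE 0.35, limma adjusted p = 0.00432), and Xbp1, the ER stress factor, by -0.81 (SE 0.24, limma adjusted p = 0.0337). The Xbp1 call in fasted liver held in 9 of 18 alternatives (adjusted p 0.0231 to 0.140). Both rose on refeeding of Lpin1-/- mice, by 1.92 and 1.88, and Xbp1 also rose on refeeding of Lpin1+/+ mice, by 1.33, in 13 of 18 alternatives.

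The kinases, phosphatase subunits and exchange factor of eIF2 changed mainly with refeeding of Lpin1-/- mice. Of 16 tested, 9 were then higher, led by Eif2b4, a subunit of the exchange factor eIF2B (log2 fold change 1.59, SE 0.19, limma adjusted p = 0.000684). After rescaling 4 of the 16 were altered, with 3 higher, against 1730 of all 11507 genes. On refeeding of Lpin1+/+ mice the altered gene was Dnajc3, an inhibitor of eIF2 kinases (1.12), which held in 10 of 18 alternatives and was lost with rescaling. In fasted liver Eif2ak2, the kinase PKR, was lower in Lpin1-/- (-0.89), and in refed liver Eif2b3 was higher (0.75). Both calls were fragile, with Eif2ak2 past the threshold in 7 of 17 alternatives (adjusted p 0.0167 to 0.119) and Eif2b3 in 7 of 18 (0.0366 to 0.138).

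Genes that use amino acids followed different courses. Of 20 cytosolic aminoacyl-tRNA synthetases, 14 were higher on refeeding of Lpin1-/- mice, led by Yars (log2 fold change 1.58), with a list median of 0.78 against 0.25 for all genes. This count was 6 after rescaling, when 1730 of all 11507 genes were altered. On refeeding of Lpin1+/+ mice 2 were higher, led by Wars (1.30, past the threshold in 15 of 18 alternatives), and 1 after rescaling, when 76 of all genes were altered. In fasted Lpin1-/- liver 4 were lower, led by Farsb (-0.93, in 13 of 18), and this count was 0 without replicate 1 of fasted Lpin1+/+ liver. Of 9 amino acid transporters tested, only Slc3a2, the heavy chain of several exchangers, was altered, and it was higher in fasted Lpin1-/- liver (20.7, 15.4 and 18.9 RPKM against 27.7, 38.0 and 64.2 RPKM, log2 fold change 1.12, SE 0.27, limma adjusted p = 0.0148). Of 13 enzymes of serine, folate, proline and cysteine metabolism, 2 were higher and 3 lower in fasted Lpin1-/- liver. Got1, the cytosolic aspartate aminotransferase, was higher in both feeding states (2.87 fasted and 4.07 refed on the log2 scale), and Shmt1, a serine hydroxymethyltransferase, was lower by a log2 fold change of -1.62 in fasted liver and rose by 1.46 on refeeding.

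The ER chaperones and export factors controlled by ATF6 and XBP1, another arm of the ER stress response, moved with feeding. Of 20, 13 were higher on refeeding of Lpin1+/+ mice, led by Creld2 (log2 fold change 3.85, SE 0.51, limma adjusted p = 0.0105), and 10 on refeeding of Lpin1-/- mice, led by Hyou1 (2.84, SE 0.29, limma adjusted p = 0.000357). The list medians were 1.75 and 0.97, against 0.19 and 0.25 for all genes. Rescaling left 5 and 2 of these calls, when 76 and 1730 of all 11507 genes were altered. After rescaling the 2 of 20 in Lpin1-/- mice thus did not exceed the share of all genes. Fitting only the 6 libraries compared left 0 of the 13, and 0 of all genes. In refed liver 6 of the 20 were lower in Lpin1-/-, led by Derl3 (-4.23), and in fasted liver 2 were lower, led by Pdia4 (-1.40). Against fasted Lpin1+/+ liver, none of the 20 was higher past the threshold in fasted Lpin1-/- liver. Of all genes 5.63% were, so in a list of 20 this count is too near the share to be read as a result.

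**Figure D4:**
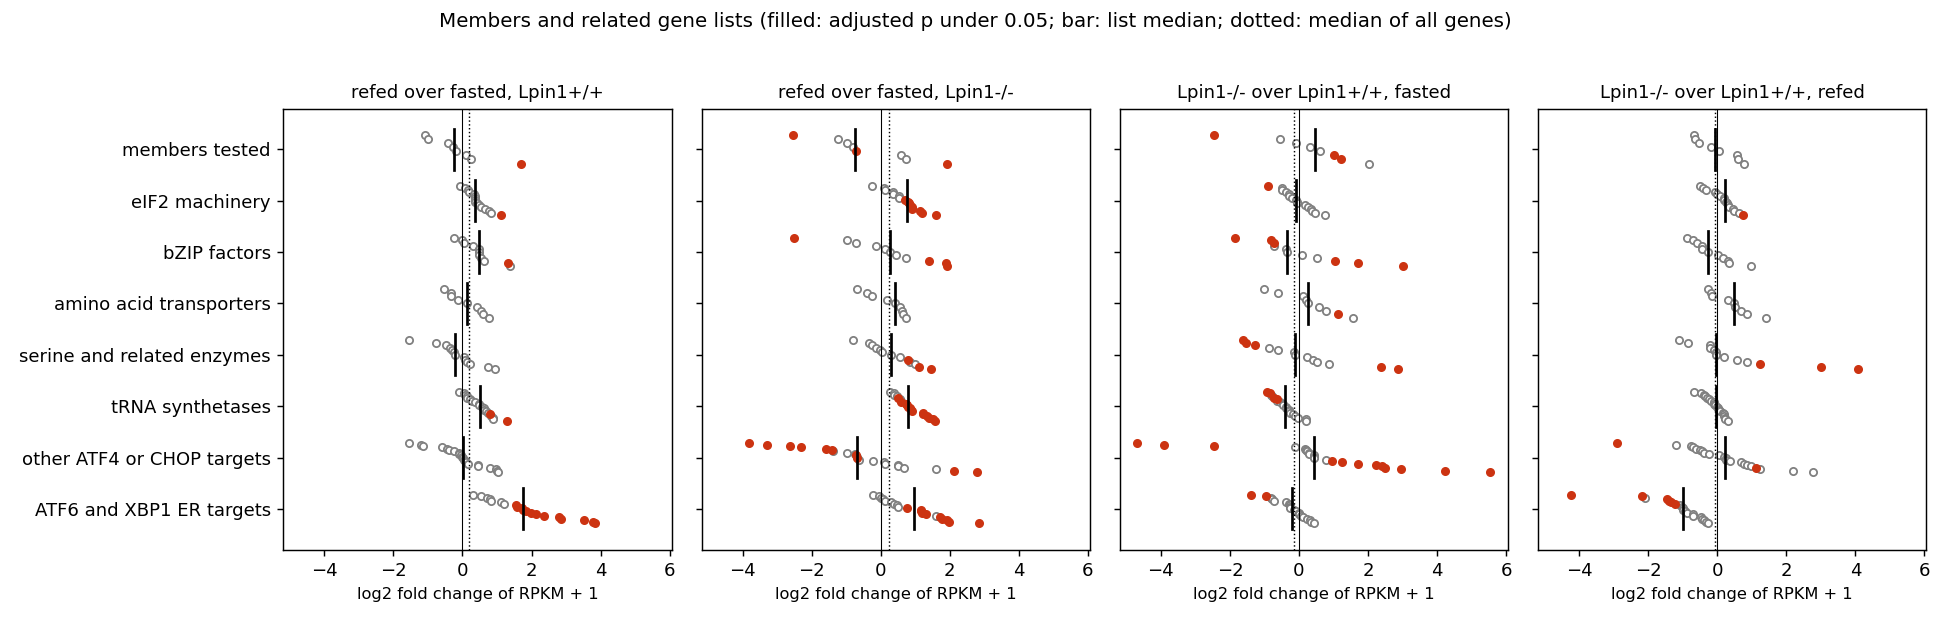
Log2 fold change of RPKM + 1 of each tested gene in the 8 integrated stress response genes and 7 related lists, in 4 comparisons, filled red where the adjusted p is under 0.05, with list medians as bars and the median of all genes as a dotted line. On refeeding of Lpin1+/+ mice the ATF6 and XBP1 targets have the highest list median (1.75), and in fasted liver the other ATF4 or CHOP targets reach from -4.67 to 5.54.

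Outside these lists, the gene most like each of the 8 over the 12 libraries was found by the smallest root mean square difference of the standardised values. For Atf4 it was Hilpda, a lipid droplet protein (0.366), at 110 ± 47.0 RPKM in fasted Lpin1-/- liver and 9.26 to 12.0 RPKM on average in the other groups. For Atf5 it was Xrcc5, a subunit of the Ku DNA repair complex (0.169), and for Ddit3 it was Spcs2, a subunit of the signal peptidase of the ER (0.336). It was Ackr2 for Chac1 (0.224), Tiparp for Ppp1r15a (0.256), Hps4 for Sesn2 (0.281), Ighv2-3 for Asns (0.385) and 8430408G22Rik for Trib3 (0.386). The median over all genes was 1.11 to 1.51, and these are descriptions over 12 libraries that share their group structure.

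Exon skipping, counted by the authors with rMATS, was read for the same genes. In fasted liver 6 events fell in 5 of the 10 genes, and 4 had at least 10 counts, inclusion plus skipping, in every library. Between genotypes limma called 0 of these 4 (0 at an unadjusted p under 0.05), while 11.3% of all 69644 tested events were called. The smaller of the 2 counts averaged 0.83 in Sesn2, 1.33 in Ppp1r15a, and 2 and 0.17 in the Ddit3 exons of 48 and 158 bases. With so few skipping counts these tests could hardly call a difference, so the 0 cannot be read against that share. In refed liver 4 events fell in 2 genes and 3 were tested, with 0 called (0 at an unadjusted p under 0.05) against 0.97% of 65231. Of these 3, 2 are the same Ddit3 exon read as 48 or 44 bases, with the same skipping counts. In the third, in Asns, the smaller count averaged 0.33. An exon of Ddit3 of 48 bases at chr10:127293712-127293759 was tested in both feeding states. Its inclusion was 95.8%, 97.1% and 91.8% in fasted Lpin1+/+ and 95.6%, 97.9% and 100% in fasted Lpin1-/- liver, in the order in which the table lists the libraries. In refed liver it was 87.8%, 95.8% and 90.5% in Lpin1+/+ and 98.9%, 94.2% and 91.0% in Lpin1-/-. The skipped form had 0 to 4 counts per library in fasted and 1 to 19 in refed liver, so differences of a few percent were not detectable.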

How the data were processed

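Liver RNA-Seq libraries of 12 mice were grouped by the genotype and feeding labels of each library. Per the labels, the authors aligned reads with HISAT2 2.0.5 to GRCm38 and counted them with HTSeq 0.6.0. They deposited RPKM for each gene and library, and whole-number inclusion and skipping counts for exon events from rMATS. The deposited p-value columns and inclusion levels, which hold the authors' own comparisons and ratios, were not used, and neither was the DESeq2 output. How strand was treated in counting is not given in the sources used here.

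RPKM was tested as log2(RPKM + 1) with limma 3.58.1 (R 4.3.3, trend in the variance) in 1 fit of the 4 groups, for the 11507 genes whose mean reached 0.5, with Benjamini-Hochberg adjustment and a threshold of 0.05. The study tested counts, which RPKM does not give. For exon events limma was run on the log2 ratio of the 2 counts per length, with 0.5 added to each, where every library of the comparison held 10 counts or more. The methods were tested on simulated data. For RPKM, changes were set in fasted Lpin1-/- liver, with independent normal noise, only in genes whose mean log2(RPKM + 1) was above 2. In these, 82 of 100 log2 changes of 2 and 35 of 100 log2 changes of 1 were recovered, with 6 false calls. Genes below that mean, Asns and Chac1 among them, were not covered. A change near 1 on the log2 scale would thus often be missed. The event tables list the libraries of a group without replicate numbers. Ratios of low RPKM values gave relative depths of 0.921 to 1.23 and no absolute depth, so no counting error is given for RPKM, and p-values measure the spread between mice. Files were read with Python 3.11.15 and pandas 2.3.3. Gene positions are those of GENCODE M21.

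The 10 genes and the 7 related lists were chosen with earlier results of these data known, and the lists come from textbook knowledge. Beyond the 10 genes and Lpin1, the genes named are, in each list and contrast, the altered gene with the largest change in each direction, and for each tested member the most alike gene. Fgf21 and Gdf15 were added after their values were seen. Alternatives were a pseudocount of 0.1, no minimum or a minimum of 5 RPKM, median-ratio rescaling, the replicate number as a block, a fit of only the groups compared, and leaving out each library.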

Additional observations from a re-analysis of the deposited data

Results flagged for a closer look

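The refeeding effect of 5 related genes differed between the genotypes by the interaction term of the limma fit. Of the 8 tested integrated stress response genes, 0 passed, which with 1.28% of all genes called is no result about them. Atf5 came closest (1.81, limma adjusted p = 0.0730). An unadjusted p under 0.05 was reached by 2 of the 8 and by 2082 of all 11507 genes. By list, the 5 related genes were 1 of 11 bZIP factors, 1 of 13 serine and related enzymes and 3 of 22 genes listed as other ATF4 or CHOP targets. These 3 include the paralogs Sesn1 and Chac2. The other lists held 0, and of all genes 1.28% were called. Values are the log2 effect in Lpin1-/- minus that in Lpin1+/+ liver. Atf3 was at -3.88 (SE 0.48, adjusted p = 0.00664, range over 16 alternatives 0.0023 to 0.0311), from refeeding values of -2.503 and 1.38. Sesn1 was at -3.47 (SE 0.47, adjusted p = 0.00913, range over 17 alternatives 0.00301 to 0.0383), from -3.31 and 0.17. Gdf15, a stress hormone named after its values were seen, was at -3.09 (SE 0.66, adjusted p = 0.0460, range 0.0272 to 0.128), from -2.64 and 0.45. Chac2 was at 2.22 (SE 0.42, adjusted p = 0.0317, range 0.00936 to 0.0958), from 2.12 and -0.11. Shmt1 was at 1.81 (SE 0.37, adjusted p = 0.0398, range 0.0342 to 0.126), from 1.46 and -0.35. Chac2 kept the call in 7, Gdf15 in 5 and Shmt1 in 4 of 17 alternatives.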

How the results depend on the processing

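Between genotypes in fasted liver the count of altered integrated stress response genes was 3 under each alternative other than the fit of only the groups compared, where it was 1 (Atf5), and leaving out single libraries, where it was 3 to 4. On refeeding of Lpin1-/- mice it was 3, and 5 with a pseudocount of 0.1, 6 with rescaling, 2 with no minimum or only the groups compared, and 1 to 4 with a library left out (1 without replicate 3 of fasted or any library of refed Lpin1-/- liver). On refeeding of Lpin1+/+ mice it was 1, and 0 with no minimum, with rescaling and with only the groups compared, and 0 to 1 with a library left out (0 without any 1 of the Lpin1+/+ libraries or replicate 2 or 3 of refed Lpin1-/- liver). It stayed 0 between genotypes in refed liver and for the interaction, and exon events of these genes stayed at 0.

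Over all genes, refeeding of Lpin1+/+ mice altered 198, and 76 with rescaling, 0 with only the groups compared and 23 to 229 with a library left out (lowest without replicate 2 of fasted Lpin1+/+ liver). Refeeding of Lpin1-/- mice altered 2382 (1730 with rescaling, 1122 to 3108 with a library left out, lowest without replicate 2 of refed Lpin1-/- liver). The genotypes differed in 2168 genes fasted (1011 with only the groups compared, 1037 to 2313 with a library left out, lowest without replicate 3 of fasted Lpin1+/+ liver) and 767 refed (242 to 1046, lowest without replicate 3 of refed Lpin1-/- liver). The interaction was called for 147 genes, and for 83 with no minimum, 306 with rescaling and 30 to 191 with a library left out (lowest without the same library). The causes of these changes were not tested.

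Replicate numbers are shared by the groups, but the labels do not say that they mark a litter or day. The deviations of 18 same-numbered pairs from their group means had r of -0.47 to 0.74 (median 0.034), 8 above 0.1, and 6 of 12 libraries were closest to their own number, so the numbers were not taken to pair the mice. With the replicate block, refeeding of Lpin1+/+ mice altered 0 of the 8 genes and 93 of all genes, and the interaction 81 genes. The block left 3 genes altered in fasted liver and 3 on refeeding of Lpin1-/- mice, where Trib3 replaced Chac1. Counts of reads were not analysed here, so no limit of detection is given for the low genes Asns, Psat1 and Phgdh.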
